A study of Mus musculus with 8 samples.

Results

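Aldehyde dehydrogenases (ALDH), alcohol dehydrogenases (ADH), flavin-containing monooxygenases (FMO) and carboxylesterases (CES) are enzyme families with members in phase I metabolism, though not all members act there. The data give the H3K27ac class of the regions at the transcription start sites (TSSs) of their genes in hepatocytes under endoplasmic reticulum stress (ERS). The members were all protein-coding genes of GENCODE release M21 whose symbol starts with Aldh, Adh, Fmo or Ces followed directly by a digit. This rule gave 53 of 21951 protein-coding genes, namely 21 ALDH, 6 ADH, 7 FMO and 19 CES genes. It used no measured value. Mouse primary hepatocytes (MPH) from adult male C57Bl6 WT mice (C57BL/6J in the study's methods), grown in serum-free medium, were exposed for 4 h to 1 µM thapsigargin or to vehicle (0.04% DMSO). Thapsigargin blocks the calcium pump of the endoplasmic reticulum and thereby induces ERS. Each treatment has 3 H3K27ac libraries and 1 input library. H3K27ac marks active promoters and enhancers. Because the cells were isolated and cultured, both groups describe hepatocytes outside the liver.

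The data are mm10 regions that the authors classed as H3K27ac UP (5508 regions), H3K27ac DOWN (3376) or H3K27ac unchanged (23312) in thapsigargin against vehicle. The lists give positions alone, without counts, signal, fold changes or p-values, so library depth is unknown and no error between experiments can be given. An UP or DOWN class rests on the authors' test paired by experiment, at an FDR of at most 0.05, with bins mostly in that direction. Unchanged regions did not pass this FDR, so that class means no change was called and not that H3K27ac stayed the same. Regions that passed this FDR with a mixture of rising and falling bins were discarded by the authors. A TSS outside every region therefore either had no H3K27ac region or lay in a discarded one. Isolated hepatocytes can hold other liver cells. Of the 8 hepatocyte markers, 8 had a TSS in a region, against 1 of 7 for Kupffer cells (Cd68), 1 of 6 for endothelial cells (Stab2), 0 of 6 for stellate cells and 2 of 5 for cholangiocytes (Spp1 and Sox9).

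As background, ADH enzymes oxidize alcohols to aldehydes and ALDH enzymes oxidize aldehydes to acids, a route taken by ethanol and by retinol. FMO enzymes oxidize nitrogen and sulfur atoms of drugs and food compounds. CES enzymes cleave ester and amide bonds in drugs and lipids in the endoplasmic reticulum of hepatocytes, which express many members of these families at high levels. The members lay on 14 chromosomes, yet all 6 ADH genes were on chromosome 3 and all 19 CES genes on chromosome 8. ALDH genes were spread over 12 chromosomes.

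The DNA before the start of 6 genes is shown first, as examples of the DNA next to changed regions. They are the genes with a TSS in an UP region, or with a TSS in a DOWN region and a place on the study's list of liver identity (LIVER-ID) genes, that had the widest regions and an entry in the promoter table. Each line is taken from the 250 bases before the RefSeq start on GRCm38.p6 (mm10), 5′ to 3′ on the gene's strand, and ends before the first GENCODE TSS of the gene where one lies within them. The stretches of Fmo5, Adh1 and Aldh1a1 are shorter for that reason. Capitals mark matches on either strand to any of 6 motifs described further on.
Aldh1a1, TSS in DOWN, chr19:20601718-20601960, plus strand: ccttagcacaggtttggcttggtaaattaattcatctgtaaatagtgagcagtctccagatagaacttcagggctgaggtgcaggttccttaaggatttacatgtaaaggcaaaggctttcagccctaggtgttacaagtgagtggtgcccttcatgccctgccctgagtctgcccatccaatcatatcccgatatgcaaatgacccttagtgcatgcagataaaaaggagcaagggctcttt
Fmo5, TSS in DOWN, chr3:97628769-97628803, plus strand: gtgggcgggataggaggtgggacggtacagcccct
Ces1c, TSS in UP, chr8:93131284-93131533, minus strand: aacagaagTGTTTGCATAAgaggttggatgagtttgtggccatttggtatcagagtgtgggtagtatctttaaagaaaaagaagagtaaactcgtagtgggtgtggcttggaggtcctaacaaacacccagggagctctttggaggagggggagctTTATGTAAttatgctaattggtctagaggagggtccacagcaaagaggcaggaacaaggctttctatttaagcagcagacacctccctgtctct
Ces1e, TSS in UP, chr8:93229620-93229869, minus strand: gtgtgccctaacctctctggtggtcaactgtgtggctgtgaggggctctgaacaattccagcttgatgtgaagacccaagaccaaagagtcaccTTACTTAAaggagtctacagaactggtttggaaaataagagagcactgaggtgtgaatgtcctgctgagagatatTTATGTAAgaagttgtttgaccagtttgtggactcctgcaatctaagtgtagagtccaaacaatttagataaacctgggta
Aldh6a1, TSS in UP, chr12:84451025-84451274, minus strand: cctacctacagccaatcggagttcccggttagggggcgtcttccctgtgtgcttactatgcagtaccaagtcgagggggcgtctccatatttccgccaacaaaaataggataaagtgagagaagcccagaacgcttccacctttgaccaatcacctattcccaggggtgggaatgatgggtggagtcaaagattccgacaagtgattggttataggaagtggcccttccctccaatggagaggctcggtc
Adh1, TSS in unchanged, chr3:138277335-138277493, plus strand: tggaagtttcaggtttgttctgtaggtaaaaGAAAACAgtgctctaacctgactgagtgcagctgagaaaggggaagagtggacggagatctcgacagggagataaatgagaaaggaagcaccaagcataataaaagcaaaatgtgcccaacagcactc
The Aldh1a1 entry is the start inside its DOWN region, and another start of this gene lies far upstream. For Adh1 the stretch lies before the coding start, which was in an unchanged region, whereas the UP region held an upstream start. Aldh1a7, Aldh16a1, Adh7, Adh5 and Aldh1l2, the other genes at changed regions, are not shown.

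Of the 53 genes, 28 (52.8%) had a TSS in an H3K27ac region, beside 44.7% of the 21898 other protein-coding genes. Among these 28 genes, 5 had a TSS in a DOWN region (17.9%) beside 8.3% of other genes at a region, and 6 had one in an UP region (21.4%) beside 21.7%. No gene had both, and few of the other genes did, so this does not set the members apart. The other 17 (60.7%) had TSSs in unchanged regions alone, beside 70.5% of other genes, and 25 had no TSS in a region. The DOWN genes were Aldh1a1, Aldh1a7, Aldh16a1, Adh7 and Fmo5, and the UP genes were Aldh1l2, Aldh6a1, Adh1, Adh5, Ces1c and Ces1e. The UP share of the members was near that of other genes, whereas their DOWN share was above it on 5 genes. The DOWN count depended on which TSSs were counted. With the gene's 5′ end alone it was 2 of 23 members at a region (Aldh1a7 and Fmo5), beside 6.92% of other genes. With coding transcripts alone it was 3 of 26 (also Aldh1a1), beside 7.67%. The UP count was 5 either way.

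By family, DOWN regions held a TSS of 3 ALDH, 1 ADH, 1 FMO and 0 CES genes, and UP regions of 2 ALDH, 2 ADH, 0 FMO and 2 CES genes. A TSS in any region was found for 12 of 21 ALDH, 4 of 6 ADH, 4 of 7 FMO and 8 of 19 CES genes. CES genes thus had the lowest share at a region (42.1%), near the 44.7% of other genes, and ADH genes the highest (66.7%). Within 10 kb of a TSS the order differed. There, 16 of 19 CES, 5 of 6 ADH, 15 of 21 ALDH and 4 of 7 FMO genes had a region. Differences between families were not tested, since genes are not replicates and many of them, all ADH and CES genes among them, have family members as neighbours on 1 chromosome.

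**Figure D1:**
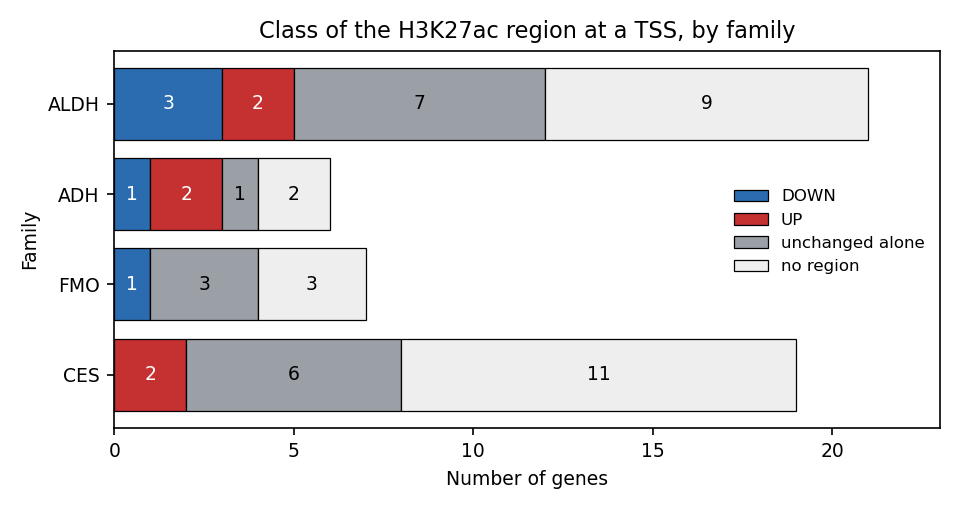
Number of genes (x axis) in each family (y axis) by the class of the H3K27ac region at a TSS. Blue is DOWN, red is UP, grey is unchanged alone and pale grey is no region. DOWN segments hold 3 ALDH, 1 ADH and 1 FMO genes, and the CES bar has none.

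Among ALDH genes, Aldh1a1, which makes retinoic acid from retinaldehyde, had the widest region of all members, a DOWN region of 10470 bp on chromosome 19 from 20600309 to 20610778. It held 1 of the gene's 6 transcripts, a coding one that starts 109246 bp from the gene's 5′ end, and reached from 1652 bp before that TSS to 8817 bp after it. The other 5 transcripts start near the 5′ end, in no region. Inside the gene, which spans 150751 bp, there were 3 DOWN and 6 unchanged regions, and DOWN regions covered 13.4% of its length. Its neighbour and close paralog Aldh1a7 had its only TSS in a DOWN region of 3187 bp (20724766 to 20727952), which lay mostly after the TSS, with 390 bp before it and 2796 bp after it. The stretch from 10 kb before Aldh1a1 to 10 kb after Aldh1a7 held 5 DOWN, 9 unchanged and 0 UP regions, with 23948 bp in DOWN and 21300 bp in unchanged regions. Of all 32196 regions, 3376 were DOWN, 23312 unchanged and 5508 UP.

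Aldh16a1 was at a DOWN region of 1348 bp on chromosome 7 (45147361 to 45148708) through 1 transcript of non-coding biotype that starts 6734 bp inside the gene. Of its 12 transcripts, 7 start in an unchanged region of 1279 bp that also holds a TSS of Pih1d1, and 4 in no region. The Aldh16a1 call therefore concerns the gene's interior and not its main start.

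At UP regions were Aldh1l2 and Aldh6a1. Aldh1l2, the mitochondrial 10-formyltetrahydrofolate dehydrogenase, had 1 coding TSS of its 7 in an UP region of 828 bp on chromosome 10 (83533186 to 83534013), 745 bp inside the gene's 5′ end. The 5′ end itself (83534140) lay just outside the region, past its end at 83534013. Aldh6a1, the methylmalonate-semialdehyde dehydrogenase of valine breakdown, had 4 of its 5 TSSs in an UP region of 2490 bp on chromosome 12 (84449771 to 84452260). This region also holds a TSS of Lin52, on the opposite side of a shared promoter, so the call cannot be given to either gene alone.

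The cytosolic counterpart of Aldh1l2, Aldh1l1, had TSSs in 2 unchanged regions, the wider one of 5418 bp. Within 10 kb of its TSSs there were 2 DOWN and 11 unchanged regions, the highest number of regions for any member. Its 7 TSSs reach to 102923 bp from the gene's 5′ end, so these windows cover more DNA than those of a gene with 1 TSS. Aldh2, the mitochondrial enzyme that clears acetaldehyde, had its start in an unchanged region of 3308 bp, and a DOWN region of 6264 bp inside it (chromosome 5, 121581499 to 121587762) covered 22.5% of the gene. Aldh3a2, which oxidizes fatty aldehydes, had 6 of its 8 transcripts start in an unchanged region of 4546 bp, with 0 UP and 0 DOWN regions within 10 kb. The other ALDH genes at unchanged regions alone were Aldh4a1, Aldh5a1, Aldh7a1 and Aldh9a1, which act in the breakdown of proline, GABA and lysine and in carnitine synthesis, respectively. No region held a TSS of Aldh8a1, Aldh3a1, Aldh3b1, Aldh3b2, Aldh3b3, Aldh18a1, Aldh1b1, Aldh1a2 or Aldh1a3, although the TSS of Aldh8a1 was 19 bp from an unchanged region.

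The ADH genes lie in a row over 238 kb of chromosome 3, and DOWN and UP regions were both found along it. At one end was Adh7, the retinol-oxidizing enzyme best known from stomach epithelium, with a DOWN region of 8875 bp (138223976 to 138232850) that covered 56.8% of the gene. That region held the TSS of 1 transcript of non-coding biotype, 10291 bp inside the gene, and the gene's coding start lay in no region. A second DOWN region of 8599 bp (138235020 to 138243618) followed, and it held the TSS of the non-coding gene 0610031O16Rik and none of a protein-coding gene. Next came Adh1, the main enzyme of ethanol oxidation in liver. An UP region of 3129 bp (138260883 to 138264011) held its most upstream TSS, of non-coding biotype, and the 3 other transcripts, which include its coding one 16503 bp further on, start in an unchanged region of 2504 bp. Adh5, the glutathione-dependent formaldehyde dehydrogenase, had 6 of its 7 transcripts start in an UP region of 1742 bp (138442076 to 138443817), and the other in an unchanged region of 1450 bp. Adh4 was at an unchanged region, and Adh6a and Adh6b had none in a region. In all, the row held 2 UP, 2 DOWN and 9 unchanged regions, beside 5508, 3376 and 23312 over all regions. DOWN regions of the row add to 17474 bp and UP regions to 4871 bp.

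**Figure D2:**
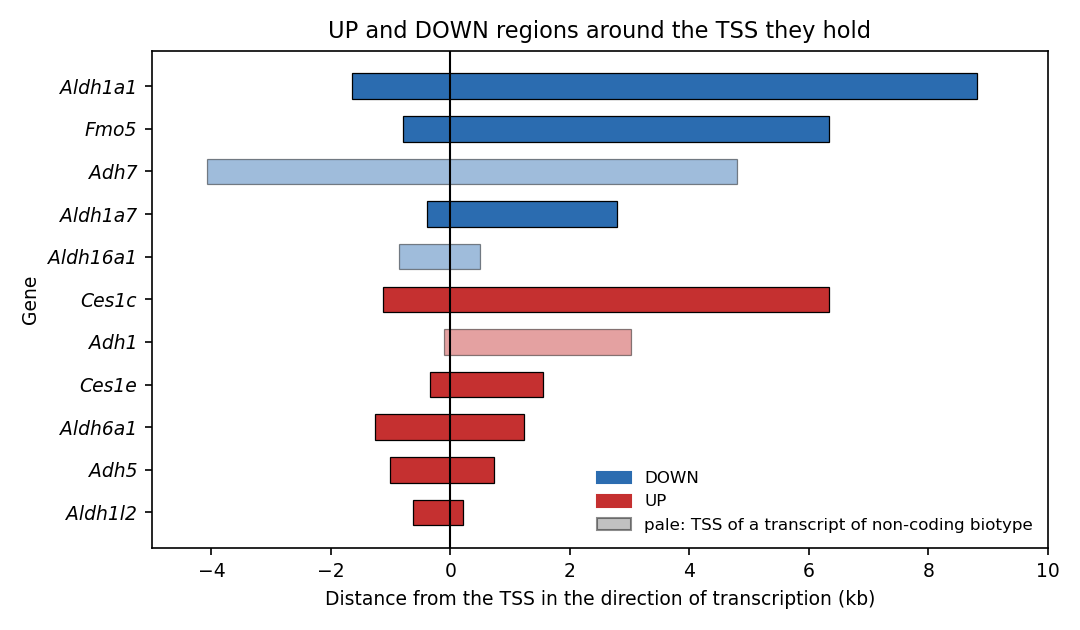
UP (red) and DOWN (blue) regions of the 11 genes at a changed region, drawn from the TSS they hold (0 on the x axis, kb in the direction of transcription). For each gene the coding TSS nearest the gene start is used. Pale bars (Adh7, Aldh16a1 and Adh1) have only a TSS of non-coding biotype in the region, and the Aldh1a1 bar reaches 8817 bp after its TSS.

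Among FMO genes, Fmo5, an enzyme of the liver that also carries out Baeyer-Villiger oxidations, was the only one at a changed region. All 5 of its TSSs lay in a DOWN region of 7126 bp on chromosome 3 (97628011 to 97635136), from 793 bp before to 6332 bp after the coding start. Inside the gene were 3 DOWN and 1 unchanged regions, the DOWN ones covering 44.4% of its length, and a further DOWN region of 237 bp lay upstream. Fmo1, on chromosome 1, which oxidizes a broad set of drugs, had its 5 TSSs nearest the gene's 5′ end in an unchanged region of 9804 bp, the second widest of all members, with 0 UP and 0 DOWN regions within 10 kb. Fmo4 and Fmo2 were at unchanged regions alone. Fmo6 and Fmo9 had no region within 10 kb of a TSS.

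The CES genes form 2 rows on chromosome 8. In the row of Ces1 genes and Ces5a (9 genes over 516 kb) there were 4 UP, 14 unchanged and 0 DOWN regions. Of all 32196 regions, 5508 were UP, 23312 unchanged and 3376 DOWN. Whether this row of 18 regions departs from that mix was not tested. Ces1c, a carboxylesterase secreted into mouse plasma, had 2 of its 3 TSSs in an UP region of 7469 bp (93124925 to 93132393), the widest UP region at any member. It lay mostly inside the gene, with 1122 bp before the coding start and 6346 bp after it, and covered 19.7% of the gene. Ces1e, which retains β-glucuronidase in the endoplasmic reticulum, had 2 of its 3 TSSs in an UP region of 1883 bp (93228077 to 93229959). An UP region of 731 bp inside Ces1e, near its far end, was 4126 bp from the nearest TSS of Ces1d, the triacylglycerol hydrolase of hepatocytes, which had 2 of its 4 TSSs, its coding start included, in an unchanged region of 1344 bp and the others in no region. Ces1h had no TSS in a region but an UP region of 1447 bp at 7234 bp. Ces1a and Ces1b were at unchanged regions alone, Ces1a through a transcript of non-coding biotype. Ces1f and Ces1g had no region at a TSS, and Ces5a had none within 10 kb.

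The other row, from Ces2a to Ces4a (10 genes over 416 kb), held 1 UP, 2 DOWN and 11 unchanged regions. Over all regions these numbers were 5508, 3376 and 23312. No gene of this row had a TSS in a changed region, and Ces2a, Ces2e and Ces3b had TSSs in unchanged regions. Ces2h had a DOWN region of 2558 bp inside the gene, 7682 bp from its TSS, and Ces4a had an UP region of 219 bp inside the gene, 6993 bp from its TSS. The TSS of Ces2c was 5 bp from an unchanged region, and Ces2b, Ces2f, Ces2g and Ces3a also had no TSS in a region. The UP regions among the Ces1 genes add to 11530 bp and the DOWN regions of the other row to 5409 bp.

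**Figure D3:**
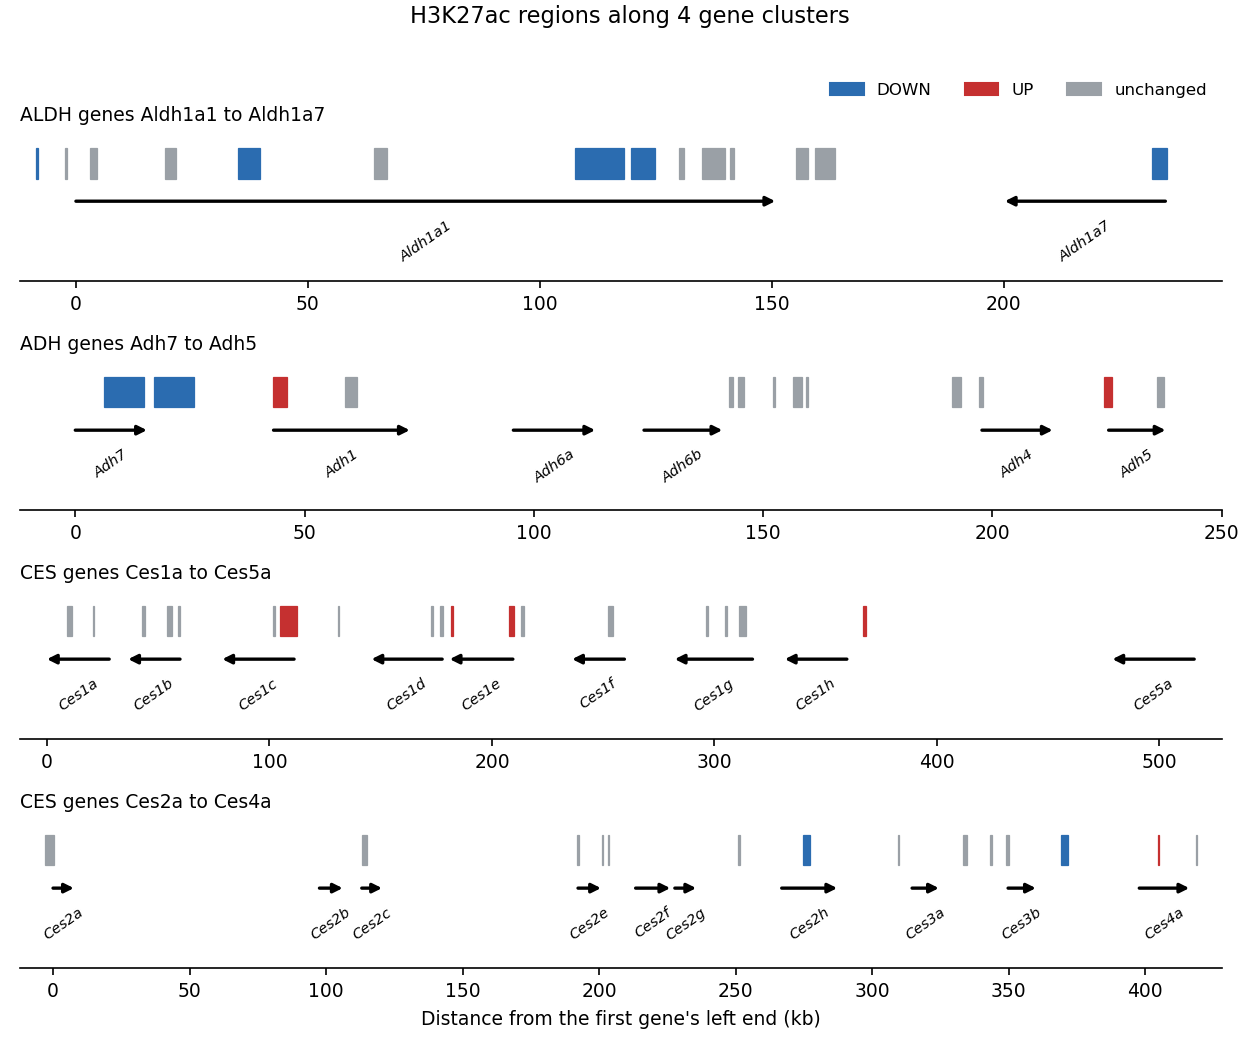
H3K27ac regions (boxes, blue DOWN, red UP, grey unchanged) and genes (arrows in the direction of transcription) along 4 rows of neighbouring members, with the distance in kb from the left end of the first gene on the x axis. The Aldh1a1 row shows 5 DOWN boxes and the Ces1 row shows 4 UP and 0 DOWN boxes. Of all 32196 regions, 5508 were UP and 3376 DOWN.

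Within 10 kb of a TSS, 40 of the 53 genes had a region of any class, beside 57.4% of other genes. A DOWN region was within 10 kb of 8 of these 40 genes, beside 14.1% of the other genes with a region within 10 kb, and an UP region of 9, beside 29.0%. These counts add Aldh2, Aldh1l1 and Ces2h to the DOWN genes and Ces1d, Ces1h and Ces4a to the UP genes. No member had both within 10 kb. For other genes this was not counted, so it does not set the members apart. By family the DOWN count was 5 ALDH, 1 ADH, 1 FMO and 1 CES, and the UP count 2 ALDH, 2 ADH, 0 FMO and 5 CES. Of the 16 CES genes with a region within 10 kb, 5 had an UP region there, beside 29.0% of other genes. A DOWN region was within 10 kb of 1 of the 16, beside 14.1%. In total 86 distinct regions lay within 10 kb of a member, 9 of them UP, 12 DOWN and 65 unchanged. Of all 32196 regions, 5508 were UP, 3376 DOWN and 23312 unchanged. None of the 86 was within reach of 2 members.

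**Figure D4:**
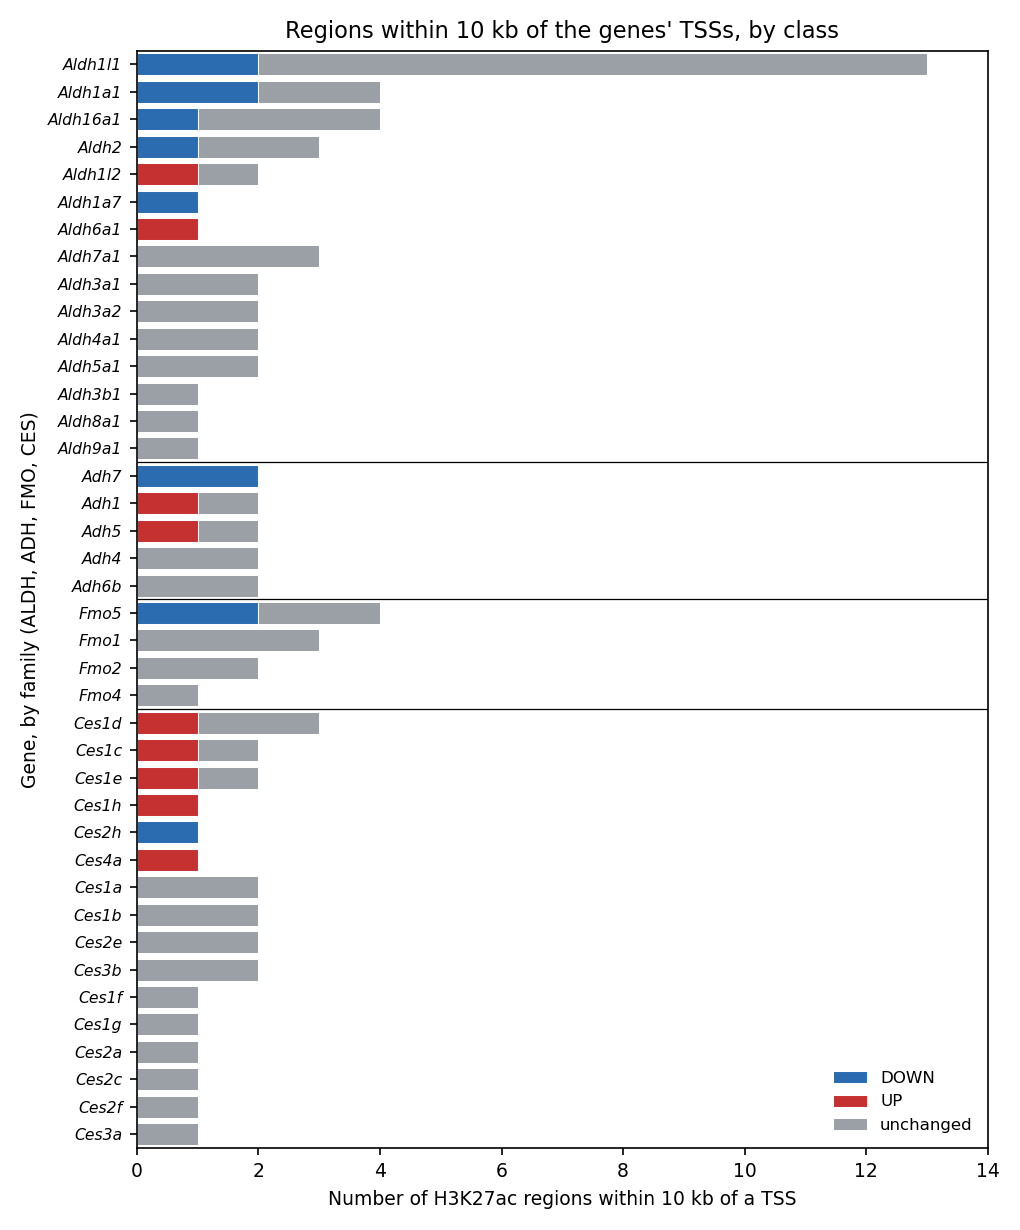
Number of H3K27ac regions within 10 kb of a TSS (x axis) for the 40 genes with any (y axis), grouped as ALDH, ADH, FMO and CES from top to bottom. Blue is DOWN, red is UP and grey is unchanged. Aldh1l1, with 7 TSSs spread along the gene, has the longest bar with 13 regions.

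Width has to be read with these counts, since DOWN regions are wider. Taking for each gene the widest region that holds a TSS, the median was 2139.5 bp for the 28 members and 1782 bp for other genes at a region. It was 7126 bp for the 5 DOWN members, 2186.5 bp for the 6 UP members and 1624.5 bp for the 20 members with a TSS in an unchanged region. Among other genes the median was 4210 bp at DOWN, 2188.5 bp at UP and 1641 bp at unchanged regions. The median over the members of a family was 3835.5 bp for FMO, 2535.5 bp for ALDH, 2435.5 bp for ADH and 1212.5 bp for CES genes, and the family without a DOWN TSS thus had the narrowest regions.

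In the widest decile of genes, from 5323 bp, were 6 members, Aldh1a1, Aldh1l1, Adh7, Fmo1, Fmo5 and Ces1c. Of these, 3 were DOWN, beside 30.7% of the other genes of that decile, and 1 was UP, beside 29.4%. When the other genes were weighted to the width deciles of the members, their share at DOWN regions was 10.7%, beside 17.9% of the members, and at UP regions 22.0%, beside 21.4%. The same weighting gave, at DOWN regions, 11.4% for the widths of ALDH genes, 11.3% for ADH, 16.0% for FMO and 6.81% for CES genes, beside 25.0%, 25.0%, 25.0% and 0% of the genes themselves, that is 3 of 12, 1 of 4, 1 of 4 and 0 of 8. Each family share rests on 0 to 3 genes. With coding transcripts alone, the DOWN genes were 2 ALDH, 0 ADH, 1 FMO and 0 CES, and these counts were not weighted by width.

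**Figure D5:**
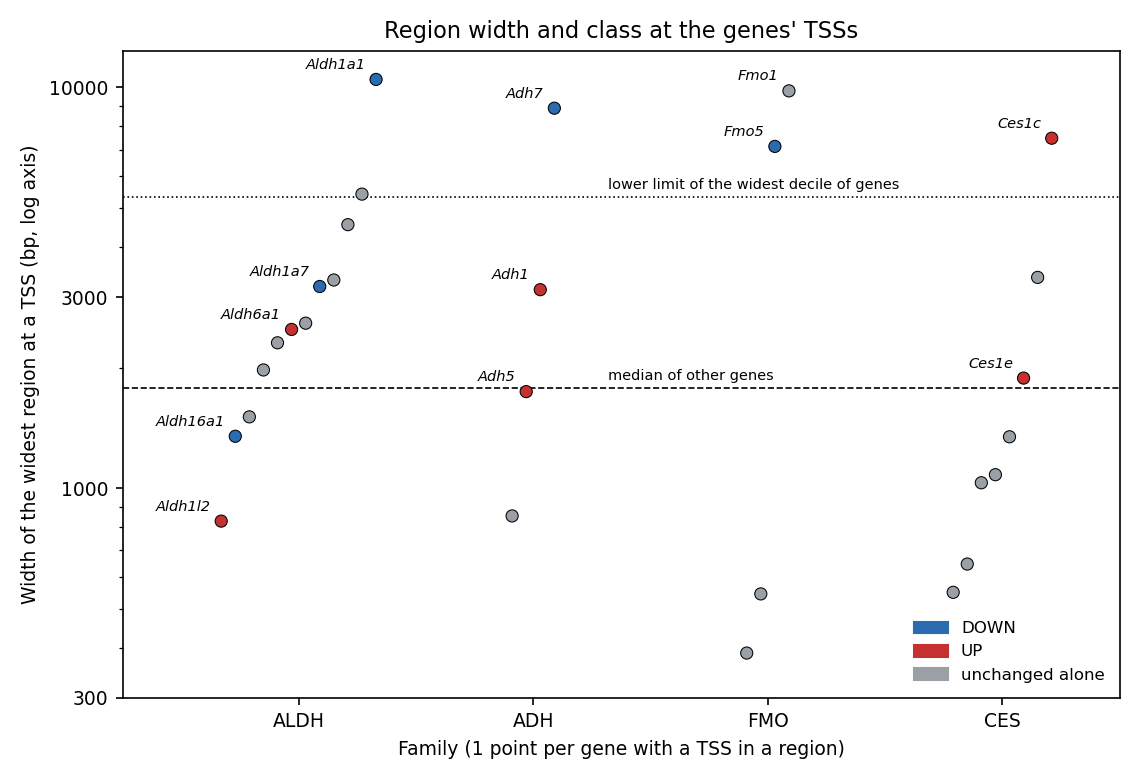
Width in bp of the widest region at a TSS (log axis) for each member with one, by family and colour of class (blue DOWN, red UP, grey unchanged alone). The dashed line is the median of other genes (1782 bp) and the dotted line the lower limit of the widest decile (5323 bp), above which lie 3 DOWN, 1 UP and 2 unchanged members.

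LIVER-ID genes are those that the study lists for a broad, liver-preferential H3K4me3 domain. The list holds 8 members, Aldh1a1, Aldh1l1, Aldh2, Aldh3a2, Adh1, Fmo1, Fmo5 and Ces1d, and all 8 had a TSS in a region. Of these 8, 2 were DOWN (Aldh1a1 and Fmo5), beside 22.9% of other LIVER-ID genes at a region, and 1 was UP (Adh1), beside 24.2%. Adh1 counts as UP through a TSS of non-coding biotype, and its coding start was in an unchanged region. Aldh1a1 counts as DOWN through 1 coding TSS far inside the gene. The other 5 were at unchanged regions alone, among them Fmo1, Aldh2 and Ces1d. A DOWN region lay within 10 kb of 4 of the 8 (also Aldh2 and Aldh1l1) and an UP region of 2 (Adh1 and Ces1d), beside 31.9% and 36.1% of other LIVER-ID genes with a region within 10 kb. Other phase I enzymes, 27 genes such as aldehyde oxidases, aldo-keto reductases, epoxide hydrolases and paraoxonases, had 24 at a region. Of these 24, 5 were at DOWN, beside 8.3% of all genes at a region outside the 4 families. UP regions held 4, beside 21.7%, and 16 were at unchanged alone, beside 70.5%. Por, the electron donor of cytochromes P450, was in all 3 classes. These shares were not weighted by width. The widest region at a TSS was 13139 bp for Rdh7, 8845 bp for Por, 6147 bp for Ephx2, 4640 bp for Akr1d1 and 2028 bp for Akr1c13, the 5 DOWN genes.

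The promoter table held 45 entries for 40 members, each with 250 bases before and 50 after the start. CpG content was low at most of them, with a ratio of observed to expected CpG of 0.6 or more in 6 of 45 (13.3%), beside 35.8% of all 32851 promoters of that length. These 6 were 5 promoters of ALDH genes (Aldh16a1, Aldh18a1, Aldh1a2, Aldh3a2 and Aldh5a1) and 1 of Adh5, and 0 of 16 CES and 0 of 6 FMO promoters reached 0.6. Median GC content was 58.0% for ALDH, 45.6% for ADH, 42.2% for FMO and 47.0% for CES promoters, beside 52.7% for all.

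The motifs searched on both strands were the D-box TTANGTAA, bound by PAR-bZIP factors and NFIL3, an HNF4 site CAAAGTCCA, a C/EBP site TTGCNNAA, an ATF4-CHOP site TGATGNAA, an AP-1 site TGANTCA and a FOXA site TGTTTNC. Matches to different motifs can overlap, as the C/EBP and FOXA matches of Ces1c do. The D-box letters were in 6 of 45 member promoters, beside 2.32% of all promoters. All 6 belonged to Ces1 genes (Ces1a, Ces1b, Ces1c, Ces1e and Ces1g, 5 of the 6 Ces1 genes in the table), and 0 of the 9 other CES promoters and 0 of the 38 other member promoters held it. The C/EBP letters were in 12 of 45, beside 10.8% of all, and the FOXA letters in 9, beside 20.5%. The AP-1 letters were in 2, beside 7.81%, both at starts of Adh7 and Aldh1a1 that lay in no region and not in their DOWN regions. The ATF4-CHOP letters were in 2, Fmo6 and Fmo9, beside 3.97%, and the HNF4 letters in 0, beside 0.475%.

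The D-box stretches of the Ces1 genes are shown because the motif was found in this row alone. They were chosen after the matches were seen. Each line has 15 bases on each side of the 8 letters, which are in capitals. Ces1b has 2 listed starts, and its site is the same in both entries.
Ces1a, chr8:93048368-93048405, minus strand: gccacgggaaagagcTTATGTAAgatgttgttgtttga
Ces1b, chr8:93080002-93080039, minus strand: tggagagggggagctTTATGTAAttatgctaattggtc
Ces1c, chr8:93131355-93131392, minus strand: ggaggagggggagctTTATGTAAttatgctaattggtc
Ces1e, chr8:93229753-93229790, minus strand: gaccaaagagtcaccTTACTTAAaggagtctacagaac
Ces1e, chr8:93229678-93229715, minus strand: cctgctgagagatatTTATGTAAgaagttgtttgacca
Ces1g, chr8:93337419-93337456, minus strand: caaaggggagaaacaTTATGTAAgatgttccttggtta
The Ces1b and Ces1c stretches are alike over most of their length, and the genes of the row are paralogs, so these matches are not independent. Ces1c and Ces1e had their start in an UP region, Ces1b in an unchanged region, and Ces1a and Ces1g had the listed start in no region. A link between the motif and the class was not tested.

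The reads were 50 bases long, and a read from a repeated stretch cannot be placed at 1 site. In the 2 kb centred on the gene start, the share of 50-base words that occur more than once in the genome was 0% to 37.4% over the 53 genes. It was above 20% for Adh6a (37.4%), Ces2h (33.0%), Adh4 (23.1%) and Aldh3b3 (20.8%), of which Adh4 had a TSS in a region. The median was 0% for the 25 genes without a region at a TSS and 0.154% for the 28 with one. Ces1c, at 12.7%, had the highest share at the gene start among the 11 genes at changed regions, and Fmo5, Aldh6a1, Aldh1l2 and Adh5 were at 0%. For Aldh1a1, Adh7 and Aldh16a1 this window does not reach the TSS in the changed region. The part of repeated stretches in the classes was not tested.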

How the data were processed

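H3K27ac ChIP-seq libraries of MPH (3 for thapsigargin, 3 for vehicle, with 1 input each) were made into region lists by the authors. Reads were aligned to mm10 with Bowtie, filtered for duplicates and blacklisted regions, and pooled for broad peak calling with MACS2. A csaw analysis paired by experiment then classed each peak, with loess normalization of read counts in bins. The deposited lists have no header and give a chromosome, a start and an end in bp and a name for each region, with no counts, signal, scores or p-values. Depth per library is unknown, and groups enter only through the authors' classes.

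Starts were converted to 1-based positions. TSSs came from GENCODE release M21 on mm10, whereas the study names an earlier release. A gene took the class of every region that holds a TSS of any of its transcripts. Counts were set beside the shares of all other protein-coding genes, with 10 deciles of region width (per gene, the widest at any TSS), and no test was run over genes. Rows of neighbouring genes were members of 1 family less than 200 kb apart, extended by 10 kb. Promoters were RefSeq entries on GRCm38.p6, matched by symbol (40 of 53 members, 45 entries, all equal to the genome), and 50-base words were counted on both strands. Results for 1 gene are not reported here. The genes named with values were those with a TSS in a changed region, LIVER-ID genes, the member with the widest region of each family, and those with a changed region within 10 kb but no TSS in a region. The TSSs nearest the edge of a region (Aldh8a1 and Ces2c) and the genes named for promoter sequence or repeated words were chosen after their values were seen. The members and lists were chosen with earlier results of these data known. Counting functions were tested on simulated data. The analysis used Python 3.11.15, numpy 2.4.6, pandas 2.3.3 and matplotlib 3.10.9.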

Additional observations from a re-analysis of the deposited data

How the results depend on the processing

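No paired analysis was possible because the lists give no value for any library. Leaving out single replicates could not be run either. Protein identity between members was not run. Of 66 recomputed counts and shares, 46 stayed within 1.5 times the count or within the 95% interval of the share (7.77% to 8.87%). The other 20 moved further. That interval treats genes as independent, which they are not, and served only as a limit for calling a share moved. The main values were 28 members at any region, 5 at DOWN (3 ALDH, 1 ADH, 1 FMO and 0 CES), 6 at UP and 17 at unchanged alone, with 8.3% of other genes at DOWN. With TSSs within 10 kb, the DOWN count was 8 of 40 (5 ALDH and 1 CES), beside 14.1%. With at least 500 bp of the region on either side of the TSS, 16 members were at any region, 3 at DOWN (1 ALDH), 3 at UP and 10 at unchanged alone, beside 11.0%. With 1 TSS per gene, 2 of 23 members at a region were at DOWN (1 ALDH and 0 ADH), beside 6.92%. With protein-coding transcripts only, 3 of 26 members at a region were at DOWN (0 ADH), beside 7.67%. The share of other genes at DOWN was 10.1% with regions of at least 1 kb, 7.72% with each gene counted once and 10.7% when weighted to the members' width deciles. By construction, 1 TSS per gene drops the starts of Aldh1a1, Aldh16a1 and Adh7 that lie in DOWN regions, and coding transcripts drop those of Aldh16a1 and Adh7. For the other settings the cause was not tested. Depth could not be judged from the lists.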
